A study of Mus musculus with 24 samples.

Results

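Drug regimens that add a further kinase block to inhibition of CDK4 and CDK6 were compared in Myc-CaP, a MYC-overexpressing line grown from a prostate tumour of a mouse. The PF-06873600 group received 500 nM of that compound, which inhibits CDK2 together with CDK4 and CDK6. The group labelled T/P was read as 25 nM trametinib, which blocks MEK1 and MEK2, with 1 µM palbociclib, which blocks CDK4 and CDK6. That reading rests on the list of drugs in the treatment protocol, since the label gives only the initials. All cells were treated for 6 days, and medium with drug was renewed every 3 days. The comparison uses 6 of the 24 libraries of the series, 3 in each group, and 15527 of 55487 annotated genes passed the low-count filter. DMSO (solvent) and 1 µM palbociclib alone, each with 3 libraries, are given as reference levels. The regimens differ in more than CDK2 and MEK: the compound that blocks CDK4 and CDK6, and its dose, differ too, so those differences and the added targets cannot be told apart. The MYC overexpression of this line is shared by every group, controls included.

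CDK4 and CDK6 with D-type cyclins, and CDK2 with cyclin E or A, phosphorylate the retinoblastoma protein and its relatives. Unphosphorylated, these proteins hold E2F factors and the DREAM complex on promoters and keep genes of DNA replication and mitosis silent. MEK phosphorylates ERK, which raises a set of feedback genes (the ETV factors, Sprouty and Dusp genes) and early-response genes such as Egr1 and Fos, and which raises cyclin D1 in many cell types. Prolonged CDK4/6 block can lead to senescence, a stable arrest in which cells often secrete cytokines, proteases and matrix proteins.

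Total counts of the 6 libraries lay between 25206198 and 28318784. On the second principal component of the 12 libraries, with 21.4% of the variance, PF-06873600 2 stood at 51.1 against 22.1 and 20.4 for the other libraries of its group. T/P 2 stood at 23.6 against -8.88 and -7.29, and DMSO 2 at 16.3 against -11.4 and -15.0, while Palbociclib 2 lay near its group. The nuclear RNA Neat1 moved with this, at 206, 59.6 and 205 CPM (counts scaled to library size by edgeR's TMM method) with PF-06873600 and 168, 73.9 and 234 with T/P, and its part in the results was not tested. For the gene lists, counts without the libraries numbered 2 are given where they differ. The cells had many counts of the prostate factor gene Foxa1, at 286, 272 and 290.3 CPM with PF-06873600 and 298, 270.1 and 283 with T/P. Several other luminal markers were absent or nearly so: Epcam and Pbsn had 0 counts in all 12 libraries, and Cdh1 had 3 with PF-06873600 and 21 with T/P. Summed over the 4 tested of 9 fibroblast markers, levels were 24.8, 25.5 and 27.7 CPM with PF-06873600 and 14.5, 14.6 and 14.2 with T/P, nearly all of it Pdgfra, while Lum, Thy1, Pdpn and Fap had 0 counts. The 3 tested of 7 endothelial markers summed to at most 2.73 CPM and Lyz2, the only tested one of 7 immune markers, to at most 0.282 CPM.

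PF-06873600 left replication and mitosis genes and several ERK feedback and cytokine genes higher than T/P did, and left early-response, lysosome and fibrinogen genes lower. In edgeR's quasi-likelihood test with Benjamini-Hochberg adjustment, 1916 genes (12.3% of those tested) were called at an adjusted p under 0.05. Of these, 1179 (7.59%) were higher and 737 (4.75%) lower with PF-06873600. Only 307 (1.98%) also differed at least 2-fold, 262 (1.69%) higher and 45 (0.29%) lower, and 110 of those 262 stayed under 1 CPM even with PF-06873600. With at least 10 CPM in the higher group, 33 genes were higher by 2-fold or more and 21 lower. In 2679 genes (17.3%) every PF-06873600 library lay above every T/P library, and in 1981 (12.8%) below. The median log2 fold change over all genes tested was 0.012. Blocking on the library number gave 1635 higher and 1191 lower genes. The higher share of calls was 61.5% with TMM scaling, and 76.5% with total counts as the only scaling. It was 55.3% with RLE factors, another edgeR scaling, and 54.2% with DESeq2, so it depended on the scaling in both directions. Leaving out the libraries numbered 2 gave 818 higher and 622 lower genes. Without T/P 1 or T/P 3 the higher count was 751 or 771, and without PF-06873600 3 the lower count was 491.

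**Figure D1:**
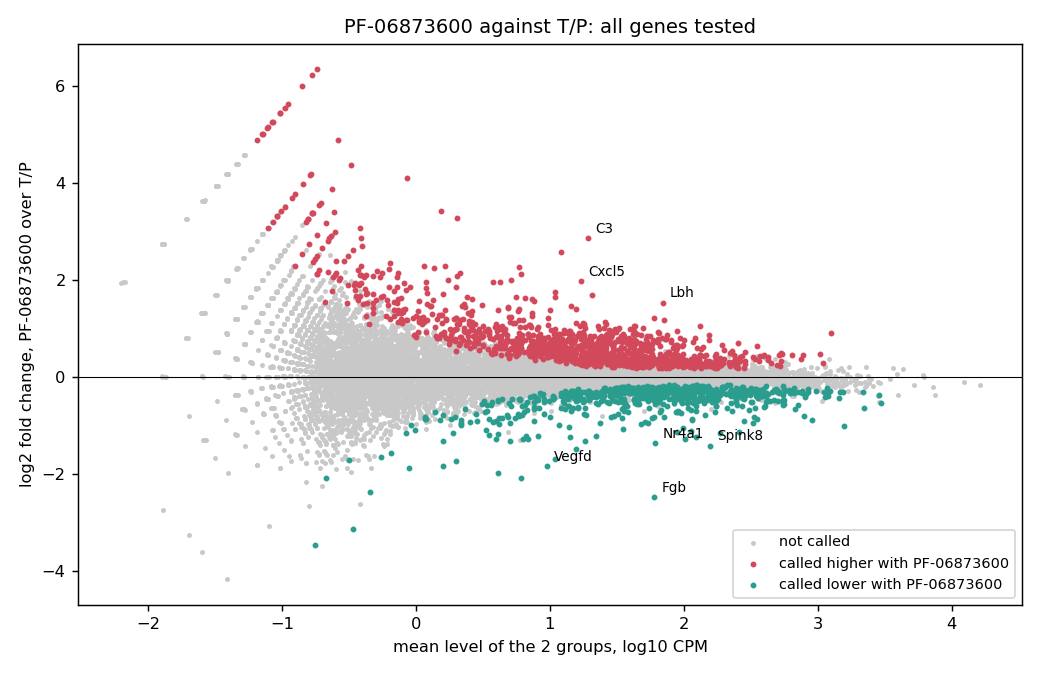
Mean level of each tested gene in the 2 groups (horizontal, log10 CPM) against its log2 fold change, PF-06873600 over T/P (vertical). Each point is a gene: red points were called higher with PF-06873600, green points lower and grey points not called, and genes without counts in these 6 libraries are left out. Most called genes lie within 2-fold, C3 and Fgb lie far outside at well-measured levels, and the steepest red points are genes under 1 CPM.

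The reference groups place these differences. PF-06873600 against palbociclib alone gave 4057 calls (26.1%), 2241 (14.4%) higher and 1816 (11.7%) lower. T/P against palbociclib gave 637 (4.1%), 254 (1.64%) higher and 383 (2.47%) lower, a count of 411 without the libraries numbered 2, of 154 without T/P 2 and of 230, 249 and 238 without Palbociclib 1, 2 and 3. Against DMSO, PF-06873600 gave 4963 calls (32%), 2780 higher (17.9%) and 2183 lower (14.1%), and T/P gave 4605 (29.7%), 2340 higher (15.1%) and 2265 lower (14.6%). Blocking on the library number gave 5992 calls for PF-06873600 against DMSO. With total counts as the only scaling the higher share of the PF-06873600 calls against DMSO went from 56% to 72%, with the median of all genes at 0.12. With RLE factors that share was 52.8%. These comparisons share libraries with each other and with the main one, so their values below stand side by side as descriptions. Among the 33 genes higher with PF-06873600 by 2-fold or more at 10 CPM, the palbociclib mean lay nearer T/P on the log2 scale for 33, and among the 21 lower genes for 17.

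Genes of the G1/S transition and DNA replication were higher with PF-06873600 almost throughout. Of 46 such genes, 44 rose and 0 fell, with a median log2 fold change of 0.66. The count was again 44 without the libraries numbered 2, and with any single library left out it was 36 to 42. The 2 not called were Ccne2 at 0.23 and Rrm2, a ribonucleotide reductase subunit gene named after its value was seen, at 0.42. Their summed level was 2737, 2924 and 2870 CPM in the PF-06873600 libraries and 1764, 1995 and 1810 in the T/P libraries. DMSO gave 1869, 2072 and 1891 and palbociclib 1525, 1601 and 1875 CPM. The PF-06873600 libraries thus lay above all 9 others, and T/P overlapped both references. Against palbociclib 44 of the 46 rose with PF-06873600 and 1 with T/P, and against DMSO 41 rose with PF-06873600 while with T/P 2 rose and 10 fell.

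Uhrf1 (ENSMUSG00000001228.14, chr17:56303321-56323486 on the plus strand, mm10), which carries DNA methylation onto newly copied strands, was at 98, 99.6 and 97.6 CPM with PF-06873600 and 42.7, 43 and 45.6 with T/P. The groups did not overlap, and the difference was 2.25-fold (log2 1.17 ± 0.14, SE, edgeR adjusted p = 4.21e-06). Cdc6 (ENSMUSG00000017499.15, chr11:98907801-98923940, plus strand), which loads the replicative helicase at origins, was at 22.9, 24.8 and 25 against 11.4, 13.7 and 11.2 CPM, with DMSO at 10.2 ± 0.805 (SD, n = 3). That is 2-fold (log2 1.00 ± 0.14, edgeR adjusted p = 2.48e-05), and PF-06873600 stood above the untreated level too. The gene of E2F1 itself, an activator of this programme, was at 34.2, 36.4 and 36 with PF-06873600 and 22.8, 23.6 and 23.6 CPM with T/P, a log2 difference of 0.61 ± 0.094 (edgeR adjusted p = 9.56e-05). Gins2, a subunit of the helicase complex, rose by 0.96 ± 0.16 on the log2 scale.

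G2 and mitosis genes moved in the same direction. Of 61, 59 rose and 1 fell, with a median of 0.78, and 59 rose also without the libraries numbered 2. With single libraries left out, 47 to 58 rose. Summed levels were 3525, 3763 and 3742 CPM with PF-06873600 and 2211, 2406 and 2216 with T/P. In DMSO they were 2494, 2998 and 2649 and in palbociclib 1892, 2023 and 2413 CPM. T/P therefore lay below DMSO and within the span of palbociclib, and PF-06873600 above all. Compared with palbociclib, 60 of these genes rose with PF-06873600 and 0 with T/P. Compared with DMSO, 38 rose with PF-06873600 and 16 fell with T/P.

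Ndc80 (ENSMUSG00000024056.10, chr17:71496100-71526857, minus strand), of the outer kinetochore that grips spindle microtubules, was at 32.6, 35.2 and 39.6 CPM with PF-06873600 and 15.2, 18.6 and 16.9 with T/P, 2.12-fold apart (log2 1.08 ± 0.16, edgeR adjusted p = 4.87e-05). The spindle kinesin gene Kif15 was at 24.6, 24.2 and 23.8 against 12.1, 11.7 and 10.7 CPM, and cyclin F, Ccnf, at 21.9, 24 and 21.5 against 10.3, 11.2 and 11.3. Both pairs of groups were clear of each other, and Kif15 in PF-06873600 lay 0.27 log2 units from DMSO (adjusted p = 0.11, not called). The proliferation marker Mki67 was higher by 0.60 ± 0.18 (edgeR adjusted p = 0.0301), but this call was lost without any single library, PF-06873600 1 to 3 or T/P 1 to 3 (adjusted p from 0.0529 to 0.138). The member that fell was Kif4, a chromokinesin, at 71.3, 78.2 and 79.4 against 103, 96.7 and 98.3 CPM (log2 -0.38 ± 0.061). Its level in DMSO, 97.9 ± 2.22 CPM, was close to that in T/P.

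**Figure D2:**
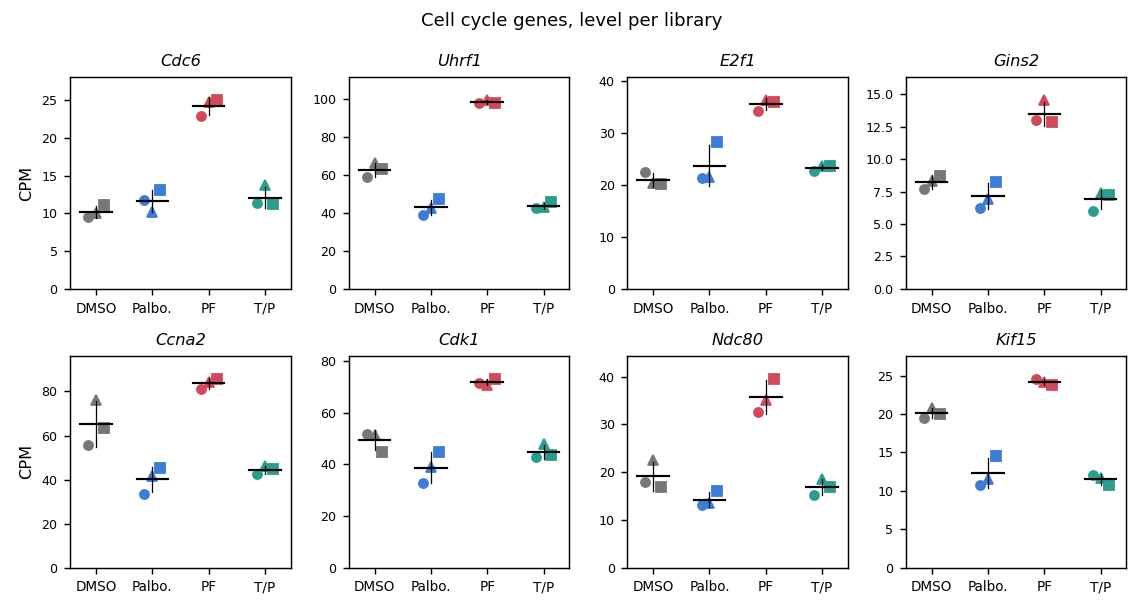
Level of 8 cell cycle genes in CPM (vertical, from 0) in DMSO, palbociclib, PF-06873600 and T/P. Circles, triangles and squares are libraries 1, 2 and 3, bars are means and thin lines 1 SD. PF-06873600 stands above T/P and palbociclib in every panel, and the ranges of T/P and palbociclib overlap in each.

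The promoters of a few genes that moved together are shown as context. They were picked by hand and each holds a marked match, which many windows of replication and mitosis genes lack (shares below). The sequences are the 250 bases before the RefSeq start on GRCm38.p6, 5′ to 3′ on the gene's strand, for a replication gene, a mitotic kinesin, the mitotic kinase gene Cdk1 and Ccnf. Capitals mark exact matches to the E2F spellings TTTCCCGC and TTTGGCGC and to the cell cycle homology region (CHR) spelling TTTGAA, on either strand. The CHR is an element through which the DREAM complex is known to act.
Cdc6, chr11:98907901-98908150, plus strand: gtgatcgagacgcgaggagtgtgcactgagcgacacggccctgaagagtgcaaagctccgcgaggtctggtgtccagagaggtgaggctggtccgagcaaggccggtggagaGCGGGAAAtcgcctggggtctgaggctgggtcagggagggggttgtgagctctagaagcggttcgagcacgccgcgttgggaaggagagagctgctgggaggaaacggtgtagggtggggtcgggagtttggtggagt
Kif15, chr9:122950831-122951080, plus strand: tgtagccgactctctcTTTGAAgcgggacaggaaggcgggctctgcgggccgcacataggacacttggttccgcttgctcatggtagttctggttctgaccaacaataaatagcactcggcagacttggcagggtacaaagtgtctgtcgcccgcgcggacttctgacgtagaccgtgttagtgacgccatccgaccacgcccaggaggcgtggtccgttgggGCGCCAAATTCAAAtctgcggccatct
Cdk1, chr10:69352913-69353162, minus strand: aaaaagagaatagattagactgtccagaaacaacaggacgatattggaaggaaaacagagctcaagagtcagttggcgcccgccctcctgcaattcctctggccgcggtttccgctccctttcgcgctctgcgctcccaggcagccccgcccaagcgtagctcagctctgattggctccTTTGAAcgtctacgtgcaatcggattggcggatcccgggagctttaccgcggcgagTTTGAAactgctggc
Ccnf, chr17:24251410-24251659, minus strand: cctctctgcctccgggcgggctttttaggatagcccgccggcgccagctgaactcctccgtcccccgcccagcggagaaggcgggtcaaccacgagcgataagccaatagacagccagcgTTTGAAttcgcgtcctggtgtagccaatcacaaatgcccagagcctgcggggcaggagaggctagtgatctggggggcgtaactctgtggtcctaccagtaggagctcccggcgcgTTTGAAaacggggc
In Cdc6 an E2F spelling begins 138 bases before the RefSeq start, and the whole window lies inside the gene as GENCODE places it. Cdk1 holds the CHR spelling 71 and 15 bases before its start and Ccnf 130 and 14 bases before. In Kif15 an E2F spelling lies 27 bases before the start and runs directly into a CHR spelling at 19, with another at 234. As GENCODE places these genes, the Kif15 spellings at 27 and 19 and the Ccnf spelling at 14 also lie inside the gene.

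Across windows that also include 50 bases after the start, the CHR spelling was found in 35 of 56 windows of the G2 and mitosis genes, 62.5%. It was in 14% of windows of the G1/S genes and in 12.3% of the 13666 windows of tested genes (17.9% of all 32851 windows in the table). Either E2F spelling was in 13 of 43 windows of the G1/S genes, 30.2%, against 7.14% for the mitosis genes and 2.74% for tested genes (1.56% of all windows). Of the 1148 windows of the 885 matched genes called higher with PF-06873600, 17.4% held the CHR and 6.01% an E2F spelling. These shares were 10.6% and 2.01% of 747 windows of genes called lower and 11.9% and 2.46% of 11771 windows of genes not called. For genes higher by at least 2-fold they were 16.1% and 2.75% of 218 windows. The genes called higher include 44 of the G1/S and 59 of the mitosis genes, so windows of these genes are counted again in the shares of called genes. A match is a description of these letters and no evidence of binding.

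Recombination and Fanconi anaemia pathway genes, which repair broken and crosslinked DNA during replication, also rose: 15 of 18, with 0 falling and a median of 0.58. Without the libraries numbered 2 the count was 12. With single libraries left out it was 9 to 11, the lowest without T/P 3. Eme1, partner of a nuclease that resolves DNA junctions, was at 8.17, 7.24 and 7.34 CPM with PF-06873600 and 3.34, 4.68 and 5.2 with T/P. It differed by 0.78 ± 0.19 (log2, edgeR adjusted p = 0.00684), called except without T/P 1 (adjusted p = 0.0643). Relative to palbociclib 12 of the 18 rose with PF-06873600 and 0 with T/P. Relative to DMSO all 18 rose with PF-06873600 and 3 with T/P.

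The genes of the kinases that the drugs bind differed by less than those of the cell cycle at large. Of 14 CDK, cyclin and retinoblastoma family genes 6 rose and 0 fell. Cyclin A2, Ccna2, the partner of CDK2 in S phase, was at 81, 84.3 and 85.8 CPM with PF-06873600 and 42.4, 46 and 44.6 with T/P (log2 0.92 ± 0.21, edgeR adjusted p = 0.00449). Ccnb1 differed by 0.90 ± 0.18, Cdk1 by 0.68 ± 0.15, the retinoblastoma relative Rbl1 by 0.69 ± 0.094 and cyclin E1, Ccne1, by 0.41 ± 0.089. Cdk2 was at 28.3, 25.4 and 31.3 against 20.2, 21.3 and 23.9 CPM, higher by 0.38 ± 0.10 (edgeR adjusted p = 0.00968). Its call was lost without PF-06873600 3 (adjusted p = 0.08), T/P 1 (0.082) or T/P 2 (0.052), and its level with PF-06873600 was -0.064 log2 units from DMSO. Not called were Cdk4 at 0.10 ± 0.088, Cdk6 at 0.0065 ± 0.094, Ccnd1 at 0.071 ± 0.069, Ccne2 at 0.23 ± 0.15 and Rb1 at 0.18 ± 0.10. Cyclin D1 was at 325, 327 and 312 CPM with PF-06873600 and 311, 311 and 295 with T/P, both above 202 ± 8.45 in DMSO.

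Among 7 CDK inhibitor genes, Cdkn2d rose by 0.54 ± 0.11 (edgeR adjusted p = 0.00177), with 18.8, 19.1 and 16.9 against 11.6, 12.9 and 13.1 CPM. Cdkn1b, encoding p27, differed by 0.23 ± 0.066, a call lost in 5 of the 6 fits that leave out 1 library, all but that without T/P 3 (adjusted p from 0.0557 to 0.178) and without the libraries numbered 2 (0.0598). The senescence-linked inhibitors did not separate the groups. Cdkn1a, encoding p21, was at 42.3, 44.6 and 36.7 with PF-06873600 and 40.4, 41 and 45.2 CPM with T/P, a difference of -0.036 ± 0.075 on the log2 scale. Both were above DMSO, by 0.56 and 0.60. Cdkn2a differed by -0.086 ± 0.12 and Cdkn2b by -0.083 ± 0.15, and the ranges of the groups overlapped for all 3. Lamin B1, Lmnb1, whose decline is used as a mark of senescence, was at 54.7, 61.8 and 59.2 against 36.5, 35.7 and 36.5 CPM (log2 0.69 ± 0.11, edgeR adjusted p = 0.000171). Against DMSO it differed by -0.85 with T/P (adjusted p = 3.28e-06) and by -0.15 with PF-06873600, not called (adjusted p = 0.325).

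Several ERK feedback genes were higher with PF-06873600 than with the combination that holds the MEK inhibitor. Of 16 tested ERK output genes (of 20 listed), 9 rose with PF-06873600 and 1, Egr1, fell, with a median of 0.38. The number that rose was 7 without the libraries numbered 2. The summed level of the list did not separate the groups, at 1342, 1308 and 1260 CPM with PF-06873600 and 1318, 1221 and 1274 with T/P. It was 1056, 988 and 1005 CPM with palbociclib and 1920, 1792 and 1766 in DMSO. The transcription factor gene Etv4 (ENSMUSG00000017724.14, chr11:101769742-101785371, minus strand) was at 22.1, 19.7 and 21.6 CPM with PF-06873600 and 6.07, 6.96 and 9.78 with T/P, 2.76-fold apart (log2 1.47 ± 0.14, edgeR adjusted p = 1.59e-07). Its relative Etv5 was at 15.2, 14.3 and 13.6 against 5.01, 5.16 and 6.37 CPM (log2 1.38 ± 0.13). For both genes the groups were far apart, and DMSO was higher than either, at 41.4 ± 3.45 CPM for Etv4 and 23.3 ± 4.08 for Etv5. Dusp6, a phosphatase that removes phosphate from ERK, was at 67.2, 68.8 and 62.1 with PF-06873600 and 41.8, 39.7 and 39.8 CPM with T/P (log2 0.71 ± 0.10, edgeR adjusted p = 5.22e-05). Emp1, a membrane protein gene, rose by 1.04 ± 0.12. Spry4, a feedback inhibitor of the pathway, was low in all libraries, at 2.19, 1.01 and 2.42 against 1.18, 0.76 and 0.842 CPM, and its overlapping groups differed by 1.02 ± 0.29. That call was lost without PF-06873600 1, PF-06873600 3, T/P 2 or T/P 3 (adjusted p from 0.0906 to 0.145).

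Palbociclib alone, with no MEK inhibitor, was also below PF-06873600 for Etv4, Etv5 and Dusp6. Dusp6 was at 38.2 ± 1.23 CPM with palbociclib and 40.4 ± 1.15 with T/P, differing by 0.08 ± 0.10 (edgeR adjusted p = 0.696). Etv4 was at 9.48 ± 1.22 against 7.6 ± 1.94 CPM (log2 -0.31 ± 0.14, adjusted p = 0.206), and Etv5 differed by -0.51 ± 0.13 (adjusted p = 0.0324). Of the 16 genes, T/P raised 4 and lowered 1 against palbociclib, PF-06873600 raised 11 and lowered 0. Against DMSO, 7 were lower and 1 higher with PF-06873600, and 12 lower and 1 higher with T/P. In the kinase cascade itself 3 of 16 genes rose and 0 fell, 18.8% called against 12.3% of all genes tested. The number that rose was 2 without the libraries numbered 2, and 1 to 2 with single libraries left out. Map2k1 and Mapk3, encoding MEK1 and ERK1, differed by 0.31 ± 0.083 and 0.29 ± 0.093. Both calls were lost on leaving out single libraries, Map2k1 without PF-06873600 1 or 2 or T/P 1 or 3 (adjusted p from 0.0527 to 0.0831) and Mapk3 without any of the 6 (0.0687 to 0.14). Map2k2, encoding MEK2, was not called, at -0.02 ± 0.078.

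Early-response genes went the other way. Of 23 tested, 10 fell with PF-06873600 against T/P and 3 rose, with a median of -0.28, and the counts were also 10 and 3 without the libraries numbered 2. The summed level was 3178, 2971 and 3009 CPM with PF-06873600 and 4158, 4188 and 4273 with T/P. It was 7070, 6358 and 6448 CPM in DMSO and 3112, 2735 and 2495 with palbociclib. T/P, the regimen with the MEK inhibitor, thus lay between DMSO and the other drugs, and PF-06873600 overlapped palbociclib. Relative to palbociclib, T/P raised 14 and lowered 0 of the 23, and PF-06873600 raised 10 and lowered 3. Relative to DMSO 16 fell and 1 rose with PF-06873600, and 17 fell and 1 rose with T/P.

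Nr4a1 (ENSMUSG00000023034.7, chr15:101254269-101274795, plus strand), an orphan nuclear receptor gene induced within minutes by growth factors, was at 35.4, 26.5 and 40.1 CPM with PF-06873600 and 100, 69.3 and 95.5 with T/P. It was 2.59-fold lower (log2 -1.38 ± 0.21, edgeR adjusted p = 9.17e-05), beside 34.3, 20.8 and 18.6 CPM with palbociclib and 211, 149.8 and 239 in DMSO. Egr1 was at 188, 154 and 141 against 412, 307 and 337 CPM (log2 -1.13 ± 0.17, adjusted p = 7.89e-05), and palbociclib at 236, 181 and 158 lay with PF-06873600. Its relative Egr2 fell by 1.28 ± 0.24 (SE) on the log2 scale. Atf3, a stress-induced factor gene, was at 125, 105 and 115 with PF-06873600, 259, 253 and 256 with T/P and 63.4, 48.8 and 44.3 CPM with palbociclib. Each of these 3 groups was clear of the others for Atf3: PF-06873600 differed from T/P by -1.15 ± 0.15 and T/P from palbociclib by 2.29 ± 0.16 (adjusted p = 1.36e-05 and 2.62e-09). The 3 members that rose were Fosl1 (0.64 ± 0.12), Klf4 (0.62 ± 0.11) and Klf10 (0.41 ± 0.10, a call lost without PF-06873600 3, T/P 1 or T/P 3, adjusted p from 0.0503 to 0.0707). Fosl1 was at 15.8, 13.8 and 16.1 against 10.2, 8.68 and 10.4 CPM, and palbociclib at 5.38 ± 0.591 lay below both.

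**Figure D3:**
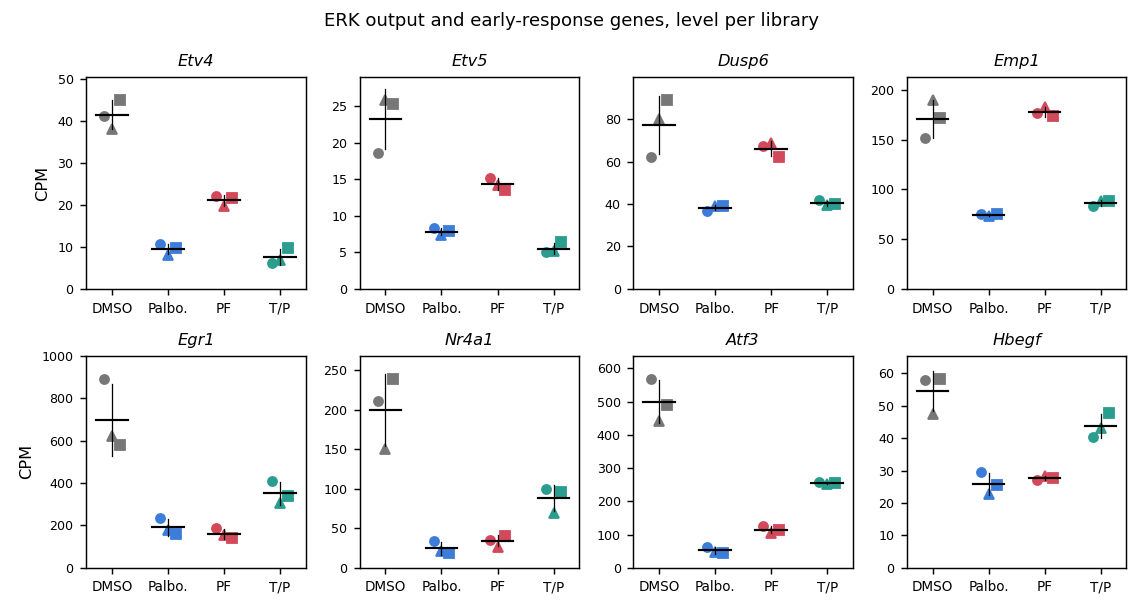
Level of 4 ERK output genes (upper row) and of Egr1, Nr4a1, Atf3 and Hbegf (lower row) in CPM, vertical from 0, in DMSO, palbociclib, PF-06873600 and T/P. Circles, triangles and squares are libraries 1, 2 and 3, bars are means and thin lines 1 SD. In the upper row PF-06873600 lies above T/P, in the lower row below it.

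Hbegf, a ligand of the EGF receptor, was the only one of 4 tested EGF family ligand genes to be called, at 27.2, 28.4 and 27.8 CPM with PF-06873600 and 40.3, 43.2 and 47.8 with T/P (log2 -0.66 ± 0.10, edgeR adjusted p = 0.000131). Of 15 receptor tyrosine kinase genes 4 fell and 2 rose, and without the libraries numbered 2 the counts were 3 and 1. The fibroblast growth factor receptor genes Fgfr2 and Fgfr3 fell by 0.44 ± 0.057 and 0.65 ± 0.15, and the insulin receptor gene Insr fell by 0.34 ± 0.074. Pdgfra rose, at 24.5, 25 and 27.3 against 14.4, 14.5 and 14.1 CPM (log2 0.84 ± 0.15, adjusted p = 0.000454). Of the targets of YAP, a growth coactivator, 3 of 16 fell (2 without the libraries numbered 2) and 1 rose: Ccn1 was at 554, 524 and 493 CPM with PF-06873600 and 807, 859 and 816 with T/P (log2 -0.66 ± 0.09), and Amotl2 fell by 0.46 ± 0.075. Ccn2 rose by 0.53 ± 0.15, a call lost without PF-06873600 1 or 2 or T/P 1 or 3 (adjusted p from 0.0791 to 0.116).

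**Figure D4:**
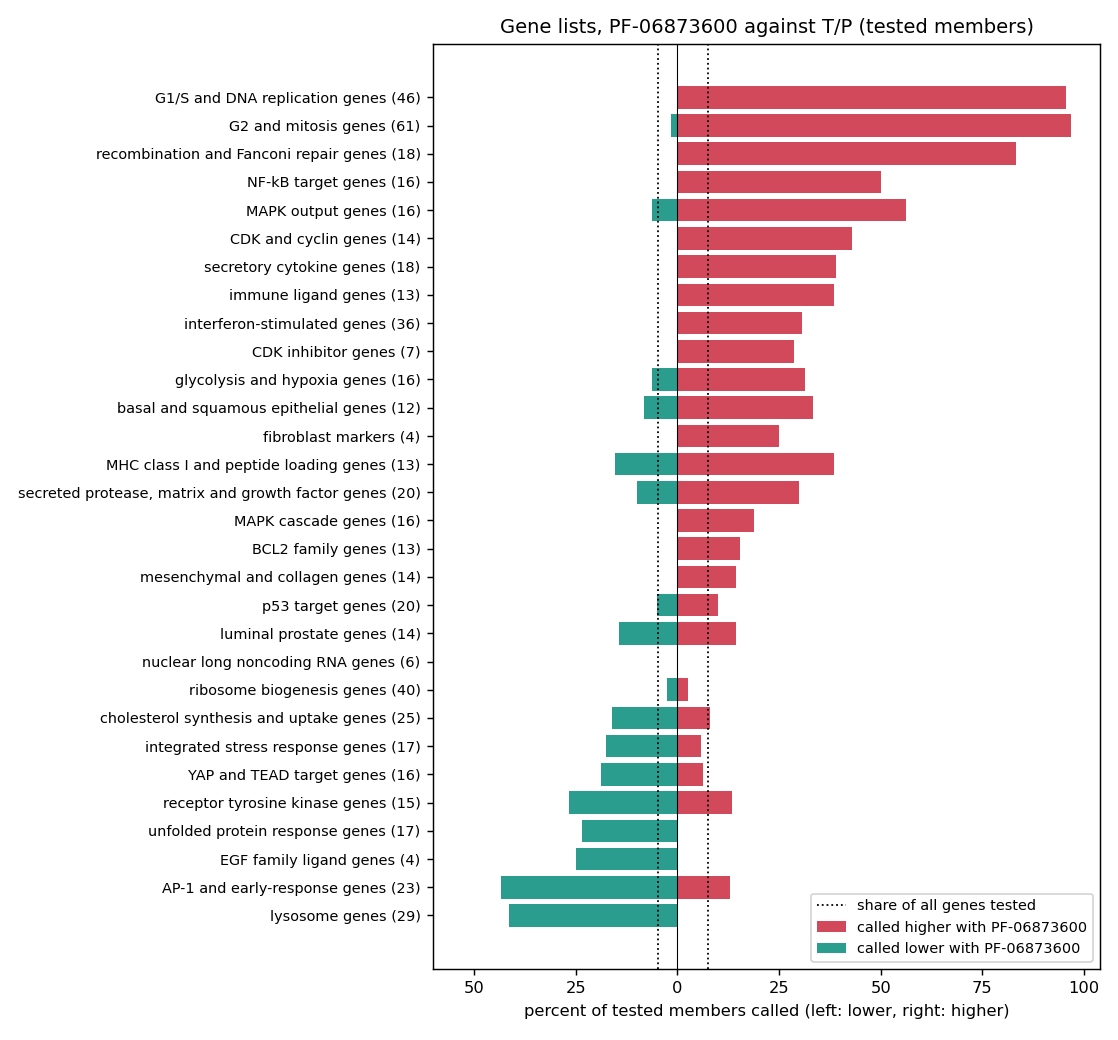
Share of each gene list's tested members (number in brackets) called higher (red, right) or lower (green, left) with PF-06873600 against T/P, in percent. Dotted lines mark the shares among all genes tested, 7.59% higher and 4.75% lower. Cell cycle lists reach furthest to the right, and the lysosome and early-response lists furthest to the left.

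Among called genes with an established symbol, 10 CPM or more and groups apart, the 10 largest rises included Etv4 and Etv5, given above, and several genes with immune roles. C3 (ENSMUSG00000024164.15, chr17:57203970-57228136, minus strand), the central complement protein, was at 35.7, 37.6 and 28.6 CPM with PF-06873600 and 4.85, 5.12 and 4.1 with T/P. It was 7.24-fold higher (log2 2.86 ± 0.16, edgeR adjusted p = 7.48e-11), while palbociclib at 6.21, 5.15 and 5.32 and DMSO at 2.31, 3.77 and 2.31 lay near or below T/P. The neutrophil chemokine gene Cxcl5 (ENSMUSG00000029371.7, chr5:90759360-90761624, plus strand) was at 28.3, 29.6 and 24.3 against 6.76, 6.72 and 7.51 CPM, 3.91-fold (log2 1.97 ± 0.11, adjusted p = 7.48e-11). Palbociclib was at 7.19, 7.59 and 7.05 and DMSO at 9.77, 12.8 and 9.49 CPM, so PF-06873600 stood alone above the other 9 libraries. Of 18 tested cytokine and chemokine genes (of 29 listed) 7 rose (6 without the libraries numbered 2) and 0 fell, with a median of 0.79. Cxcl15 was at 90.1, 85 and 74.5 against 33.2, 36.7 and 37.5 CPM and Ccl9 at 7.08, 8 and 6.36 against 2.93, 3.28 and 2.97. DMSO was at 102, 114 and 94.6 CPM for Cxcl15, so that gene was higher than T/P and not higher than the untreated level, whereas Ccl9 was at 0.349, 0.166 and 0.159 in DMSO. Interleukin 6 and interleukin 1 alpha genes, typical of the senescent secretome, had too few counts to be tested.

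Il1rl1, the receptor for interleukin 33, was at 29.9, 36.8 and 27.7 CPM with PF-06873600 and 9.61, 10.2 and 9.41 with T/P (log2 1.69 ± 0.12, edgeR adjusted p = 1.65e-09). It was at 0.524, 0.705 and 0.279 CPM in DMSO, so that both regimens were above the control, by 5.96 and 4.28. Tigit, better known as an inhibitory receptor of lymphocytes, was at 24.2, 23.1 and 21.3 against 8.23, 7.2 and 10.5 CPM (log2 1.40 ± 0.14), with the lymphocyte marker Cd3e at 2 counts with PF-06873600 and 2 with T/P. Among NF-kB targets 8 of 16 rose and 0 fell, with a median of 0.23, and without the libraries numbered 2 the count was 6. Tnfaip2, induced by tumour necrosis factor, was at 8.64, 8.73 and 7.3 CPM against 1.71, 2.04 and 2.38 (4-fold, adjusted p = 2.47e-08). The NF-kB subunit gene Relb was at 10.6, 10.2 and 11.2 against 6.07, 6.2 and 6.45 (log2 0.77 ± 0.12), and Bcl3, a cofactor, differed by 0.46 ± 0.093. Its call was lost without the libraries numbered 2 (adjusted p = 0.0636). Of 13 genes of ligands for immune cells 5 rose and 0 fell, with 4 rising without the libraries numbered 2 and 3 without T/P 1. Ulbp1, a ligand of the activating receptor NKG2D, was at 14, 13.1 and 13.1 against 6.15, 5.76 and 5.53 CPM (log2 1.21 ± 0.18), and Tnfsf10, the death ligand TRAIL, rose by 0.76 ± 0.11.

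The interferon-stimulated genes gave a less stable count. Of 36 tested, 11 rose and 0 fell, with a median of 0.57. Without the libraries numbered 2, 4 rose and 1 fell, and with single libraries left out 6 to 9 rose, with 6 without T/P 2 or T/P 3 and 7 without PF-06873600 1 or 3. Blocking on the library number gave 14 and 1. Summed levels were 634, 624 and 630 CPM with PF-06873600, 578, 567 and 535 with T/P and 461, 471 and 449 in DMSO. Oasl2, of the family that senses viral RNA, was at 7.55, 6.19 and 7.57 against 4.32, 1.92 and 1.68 CPM (log2 1.44 ± 0.31, edgeR adjusted p = 0.00242), with T/P 1 apart from the other T/P libraries. Ifit3b rose by 1.38 ± 0.29. Both have close relatives in the genome with which they can share reads. Relative to DMSO, 27 of the 36 rose with PF-06873600 and 21 with T/P, and 0 fell with either.

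MHC class I and peptide loading genes split. Of 13, 5 rose and 2 fell, and without the libraries numbered 2 the counts were 2 and 2. With PF-06873600 2 alone left out 2 rose, and without T/P 1 or T/P 3, 3 rose. Without PF-06873600 1, PF-06873600 3, T/P 1 or T/P 2, B2m alone fell. Tap2, a subunit of the transporter that brings peptides into the endoplasmic reticulum, was at 8.13, 7.96 and 8.17 CPM with PF-06873600 and 3.34, 3.44 and 3.99 with T/P (log2 1.17 ± 0.12, edgeR adjusted p = 9.1e-07). The class I heavy chain gene H2-K1, which shares sequence with its relatives, was at 134, 145 and 132 against 105, 108 and 107 (log2 0.36 ± 0.088), a call lost without the libraries numbered 2 (adjusted p = 0.0639) or PF-06873600 2 alone (0.0514). B2m, the light chain all class I molecules share, went down: 1674, 1838 and 1663 CPM with PF-06873600 against 2526, 2934 and 2667 with T/P (log2 -0.65 ± 0.10, adjusted p = 8.93e-05). DMSO, at 2084, 1936 and 1662, overlapped PF-06873600 and not T/P.

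**Figure D5:**
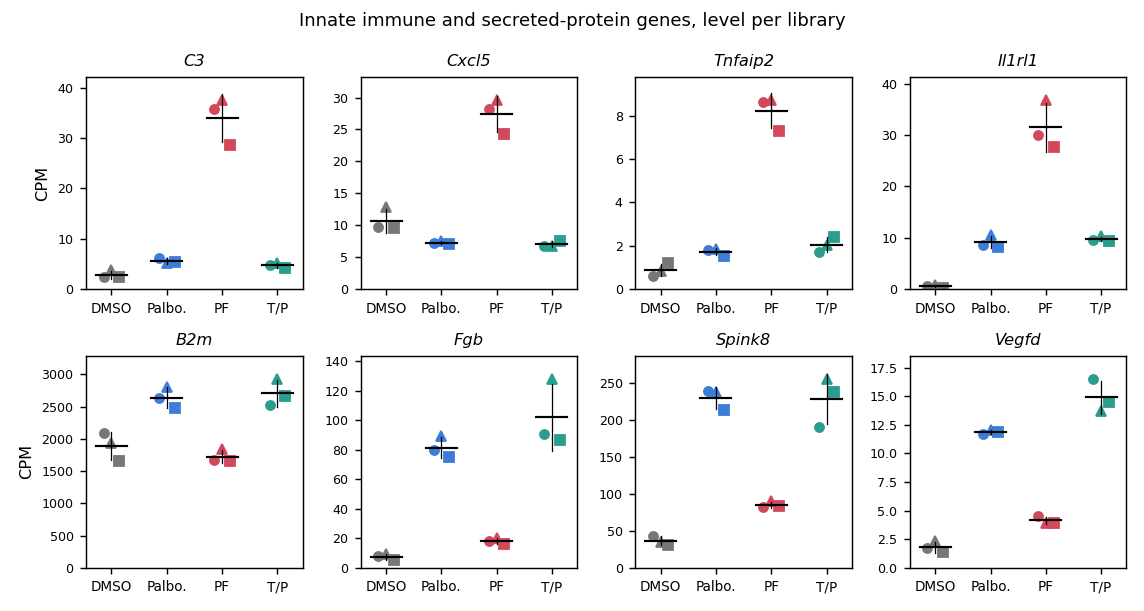
Level of 8 innate immune, antigen presentation and secreted-protein genes in CPM (vertical, from 0) in DMSO, palbociclib, PF-06873600 and T/P. Circles, triangles and squares are libraries 1, 2 and 3, bars are means and thin lines 1 SD. C3, Cxcl5, Tnfaip2 and Il1rl1 are higher with PF-06873600 than with T/P, and B2m, Fgb, Spink8 and Vegfd are lower.

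The 10 largest falls by the same criteria included Nr4a1, given above. Fgb (ENSMUSG00000033831.5, chr3:83040141-83049863, minus strand), the beta chain of fibrinogen, was at 18.4, 20.2 and 16.1 CPM with PF-06873600 and 90.6, 128 and 86.9 with T/P. It was 5.59-fold lower (log2 -2.48 ± 0.17, edgeR adjusted p = 1.65e-09), with palbociclib at 79.9, 89.1 and 75 and DMSO at 8.25, 9.08 and 5.1, so PF-06873600 stood between the untreated cells and the other drugs. Vegfd, a growth factor of lymphatic vessels, showed the same order, at 4.54, 3.94 and 3.94 with PF-06873600, 16.5, 13.7 and 14.5 with T/P and 1.7, 2.32 and 1.4 CPM in DMSO (log2 against T/P -1.85 ± 0.15). Spink8, a serine protease inhibitor gene, was at 81.6, 90.1 and 84.1 against 191, 256 and 239 CPM (log2 -1.42 ± 0.12). Steap4, a metalloreductase gene, differed from this pattern: T/P at 144, 139 and 152 lay with DMSO at 150.1, 137 and 148, and PF-06873600 at 59.6, 57.3 and 61.4 CPM lay below both (log2 -1.29 ± 0.10). Slco2b1 (an organic anion transporter) and Ccn5 (a matricellular protein) fell by 1.24 ± 0.13 and 1.69 ± 0.14, and Treh (trehalase) was 2.82-fold lower. The mitochondrial transfer RNA gene mt-Tn fell by 1.32 ± 0.29, at 8.99, 11.7 and 10.9 CPM against 15.3, 29.3 and 34.1. For mt-Tn, T/P 1 lay apart from the other T/P libraries. Further large rises were in Spink5, a protease inhibitor gene (1.65 ± 0.20), Dnm3, a dynamin gene (1.60 ± 0.16), Cpne7, a copine gene (1.57 ± 0.22), and Lbh, a transcription cofactor gene. Lbh was at 109, 107 and 94.1 CPM with PF-06873600 and 33.6, 34.6 and 39.7 with T/P, and DMSO at 90.6, 113 and 94.8 overlapped PF-06873600.

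Genes of the lysosome, a compartment that expands in many senescent cells, were lower with PF-06873600 than with T/P. Of 29, 12 fell and 0 rose, with a median of -0.19, and without the libraries numbered 2 the count was 11. Neu1, a sialidase, was at 85.9, 85.9 and 78.4 CPM with PF-06873600 and 121, 141 and 128 with T/P (log2 -0.64 ± 0.078, edgeR adjusted p = 5.04e-06). Grn, progranulin, was at 2419.7, 2426 and 2390.5 against 3494, 3714 and 3385 (log2 -0.55 ± 0.074). Glb1, the enzyme behind senescence-associated galactosidase staining, was at 109, 111 and 110 against 126, 138 and 126 CPM, a difference of -0.24 ± 0.081 that was not called (adjusted p = 0.054) and passed the threshold in 8 of the alternatives, blocking among them (0.00705). Compared with DMSO, 18 of the 29 lysosome genes rose and 3 fell with PF-06873600, and 22 rose and 1 fell with T/P.

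A few stress genes of the endoplasmic reticulum and of amino acid supply were also lower. In each list 23.5% of members were called, and the medians were -0.15 and -0.17. Over all genes tested 12.3% were called and 4.75% called lower, and the list shares were not tested against these. Of 17 unfolded protein response genes 4 fell and 0 rose, with 2 falling without T/P 1 and 2 with limma on TPM. Herpud1 was at 215, 213 and 218 CPM with PF-06873600 and 284, 284 and 257 with T/P (log2 -0.35 ± 0.059, edgeR adjusted p = 0.000243), and Pdia4 differed by -0.35 ± 0.068. Of 17 integrated stress response genes 3 fell and 1 rose (4 and 1 without the libraries numbered 2, 5 and 1 without T/P 3), and blocking on the library number raised the count that fell to 7 in each of these lists. Mthfd2, of mitochondrial folate metabolism, was at 135, 143 and 134 against 202, 225 and 201 CPM (log2 -0.61 ± 0.068), and Chac1, which breaks down glutathione, fell by 0.55 ± 0.11. Ddit4, an inhibitor of mTOR signalling, was the member that rose, at 103, 102 and 95.7 against 50.2, 61.2 and 70.5 CPM (log2 0.73 ± 0.13, adjusted p = 0.000564). Palbociclib at 105, 113 and 94.8 and DMSO at 106, 91.8 and 81.1 lay with PF-06873600, so T/P was the low group.

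Glycolysis and hypoxia genes were far below DMSO with either regimen, 16 of 16 called lower in each comparison with DMSO. Against T/P, 5 rose with PF-06873600 and 1 fell. Without the libraries numbered 2, 6 rose, and with the block on library number 8. Bnip3, a mitophagy receptor gene, was at 55.1, 52.2 and 54.7 CPM with PF-06873600, 29.2, 31.7 and 26.5 with T/P and 229, 319 and 256 in DMSO (log2 against T/P 0.89 ± 0.17, edgeR adjusted p = 0.00101). The phosphofructokinase gene Pfkl was at 151, 139.8 and 147 against 81, 95.7 and 89.3 CPM (log2 0.72 ± 0.11). PF-06873600 thus stood between T/P and DMSO for both genes. Hk2, hexokinase 2, was the member that fell (log2 -0.28 ± 0.07, adjusted p = 0.00821).

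Of 20 tested genes of secreted proteases, matrix and growth factors 6 rose and 2 fell, and 4 rose without the libraries numbered 2. The osteopontin gene Spp1 was at 1676, 1681 and 1580.4 CPM with PF-06873600 and 849.5, 946 and 851 with T/P (log2 0.90 ± 0.079, edgeR adjusted p = 6.29e-08), and DMSO was at 402, 458 and 392. Timp1, a protease inhibitor, rose by 0.73 ± 0.11 and the growth factor Fgf7 by 0.74 ± 0.11, while the urokinase receptor gene Plaur fell by 0.51 ± 0.09. Vim, the mesenchymal filament protein, was at 621, 645 and 615 against 467, 453 and 431 CPM (log2 0.48 ± 0.064), with 330.4, 306 and 317 in palbociclib and 152, 155 and 139 in DMSO, 4 groups clear of each other. Postn, a matrix protein, rose by 0.87 ± 0.12. These 2 were the called members of 14 mesenchymal and collagen genes, 14.3%, near the 12.3% called among all genes tested.

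Among prostate and epithelial genes, the luminal ones showed no common direction. Of 14 luminal genes 2 rose and 2 fell, with 1 falling without the libraries numbered 2 or without any single library but PF-06873600 2. Hoxb13, a prostate factor, was at 20.9, 21.4 and 20.8 CPM with PF-06873600 and 11.1, 14.4 and 14.4 with T/P (log2 0.66 ± 0.11, edgeR adjusted p = 0.000301), with DMSO at 34.7, 34.8 and 34.2. Keratin 8, Krt8, rose by 0.64 ± 0.15. The surface protein gene Psca fell by 0.59 ± 0.11, at 565, 599 and 545 against 741, 944 and 886 CPM. Foxa1 was not called, at -0.0063 ± 0.073. Of 12 squamous and basal genes 4 rose (5 without the libraries numbered 2) and 1 fell, with a median of 0.745. Krt78 rose by 0.89 ± 0.21.

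Calls made up 15% of p53 targets, 24% of cholesterol genes, 5% of ribosome biogenesis genes and 15.4% of BCL2 family genes. Over all genes tested the share was 12.3%. The list shares were not tested against it, so the counts below are descriptions only. Of 20 p53 targets 2 rose and 1 fell: Eda2r and Phlda3 were higher by 1.01 ± 0.15 and 0.85 ± 0.14, and Mdm2, the ubiquitin ligase of p53, fell by 0.45 ± 0.068 (83.1, 81.7 and 85.9 against 116, 108 and 117 CPM). Among 25 cholesterol genes 2 rose and 4 fell, counts of 5 and 7 with the block, 2 and 2 without the libraries numbered 2 and 0 and 1 without PF-06873600 1. Of 40 ribosome biogenesis genes 1 rose and 1 fell, but 0 rose without PF-06873600 3 or T/P 1, and 0 fell without PF-06873600 1, PF-06873600 3 or T/P 1. Of 13 BCL2 family genes 2 rose and 0 fell, and 0 rose without the libraries numbered 2. Bcl2l1, encoding BCL-XL, a target of senolytic drugs, was at 214, 208 and 197 CPM with PF-06873600 and 161, 179.7 and 183 with T/P (log2 0.24 ± 0.07, edgeR adjusted p = 0.0251), a call lost without PF-06873600 1 or 2 or T/P 1 or 2 (adjusted p from 0.0537 to 0.186). The count was 4 higher and 1 lower with the block. Of 6 nuclear long noncoding RNA genes 0 were called, also with DESeq2, while 2 were called lower with the block, without the libraries numbered 2 and without the low-count filter. Malat1 was at 445, 326 and 410.5 against 637, 416 and 668 CPM, lowest in library 2 of each group (log2 -0.54 ± 0.34, adjusted p = 0.356, and 0.0309 without the libraries numbered 2).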

How the data were processed

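RNA was extracted and sequenced as 150-bp paired reads, per the labels' protocols. The submitters' processing notes name fastp, STAR, featureCounts and DESeq2 with the mm10 genome. Strand setting and treatment of reads with several matches are not given in the sources used here, so antisense partners and near-identical copies are uncertain. The authors deposited raw counts per gene, used here for the main test, and TPM values for 24621 genes, used for an alternative with limma on log2(TPM + 1) or log2(TPM + 0.1).

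All 24 libraries (8 groups of 3, residual degrees of freedom 16) were fitted with edgeR 4.0.16 in R 4.3.3: TMM factors, filterByExpr with a minimum count of 10 and total of 15, the quasi-likelihood test and two-sided Benjamini-Hochberg adjusted p-values over the 15527 genes tested, called under 0.05. These genes hold 99.9% of the counts. Printed CPM were computed from the counts with TMM factors, and log2 fold changes have fitted standard errors. DESeq2 1.42.0, limma 3.58.1, other scalings and filters, the block and left-out libraries were alternatives. The procedure was tested on simulated data. The labels do not say whether libraries were separate cultures, so a p-value here measures only how these libraries vary, which may be technical variation. No pair of libraries of a group agreed within sampling noise (chi-square per degree of freedom from 2.78 to 49.3).

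Deviations of PF-06873600 and T/P libraries with the same number correlated at 0.122, 0.353 and 0.117 for numbers 1, 2 and 3. This link comes from the data and not from the labels. It rests mainly on number 2, since PF-06873600 1 with T/P 3 (0.125) and PF-06873600 3 with T/P 1 (0.144) correlated as much as libraries of the same number 1 or 3. By the same measure PF-06873600 and DMSO gave 0.117, 0.31 and 0.155, and T/P and DMSO gave -0.0184, 0.31 and 0.112. T/P 1 correlated more with DMSO 3 (0.184), and T/P 3 more with DMSO 1 (0.135), than with the same number. The libraries numbered 2 thus deviated together in these groups, and pairing by number is not established for numbers 1 and 3. The block on library number is an alternative fit.

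Named genes are the 10 largest rises and falls among called genes with an established symbol, 10 CPM or more and groups apart, up to 3 called members per list and direction at 5 CPM or more, and a set of drug targets and pathway genes. Other names were chosen after their values were seen, and some genes that the rule names are not reported here. Members and lists were chosen with earlier results of these data known. Gene positions are GENCODE M21 (mm10), matched for 15075 genes, and promoter sequences are from RefSeq (GRCm38.p6), matched by symbol for 10737 of the tested genes.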

Additional observations from a re-analysis of the deposited data

How the results depend on the processing

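No named gene that was called changed sign under any alternative. For PF-06873600 against T/P, RLE factors gave 1042 higher and 842 lower genes, total counts 1732 and 531, DESeq2 1151 and 972, no low-count filter 990 and 762, a 1 CPM filter 1178 and 871, and the 2 groups alone 1060 and 702. Blocking on the library number gave 1635 and 1191, with 1915 of the 1916 calls shared, and the 2 groups alone with the block, chosen after seeing the data, 1541 and 1166. Limma on TPM gave 1476 higher and 428 lower with a pseudocount of 1 and 1490 and 424 with 0.1. Without the libraries numbered 2 the counts were 818 and 622. With single libraries left out, 1328 to 1609 genes were called, 751 to 921 higher and 491 to 688 lower. A 2-fold minimum left 307 calls for PF-06873600 against T/P (262 higher, 45 lower), 685 against palbociclib (395, 290), 1238 against DMSO (966, 272), 106 for T/P against palbociclib (22, 84) and 932 for T/P against DMSO (606, 326).

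T/P against palbociclib was the least stable comparison. DESeq2 called 1137 genes, 585 higher. No filter gave 1181 (390 higher, 791 lower), the 2 groups alone 1165 (447, 718), the block 2504 (1043, 1461) and the 2 groups with the block 1357 (479, 878). Without the libraries numbered 2 there were 411, 111 higher. Limma on TPM gave 317 (129, 188) with a pseudocount of 1 and 293 (125, 168) with 0.1. With single libraries left out the range was 154 to 480 called, 88 to 243 higher and 66 to 237 lower. Same-number correlations of T/P with palbociclib were -0.00355, 0.111 and 0.0222 for numbers 1, 2 and 3. For PF-06873600 with palbociclib they were 0.0353, 0.126 and 0.0642. Both were highest for number 2, and pairing by number was not established for either. In PF-06873600 against palbociclib, genes lower were 2932 with the 2 groups alone, 2822 with the block and 3277 of 6455 with both. Genes higher were 1482 there without the libraries numbered 2. PF-06873600 against DMSO had 1246 and 1239 lower genes with limma on TPM. The cause of these shifts was not tested.

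Of the 116 named genes called, 82 were called under every alternative but the 2-fold minimum. Over all named genes and settings 241 values lost the call and 14 gained it, for Glb1, Malat1 and Cdk4. Of the list counts, 948 were equal to the main count or within 1.5 times of it, and 204 were not. A count of 0 in both fits was taken as equal. Many main counts were 0, mostly of genes that fell, so the 948 overstates how steady the other counts were. With 3 libraries per group, genes of a few counts have wide errors, and a miss of the threshold does not show equal levels.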

Other observations

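The genes below were chosen after their values were seen. Id3, an inhibitor of DNA binding gene that answers to BMP signalling, was highest with T/P. It was at 68.5, 74.8 and 69.6 CPM with PF-06873600, 126, 179 and 158 with T/P, 40.3, 35.4 and 44.7 with palbociclib and 45.2, 31.9 and 43.7 in DMSO, and PF-06873600 and T/P differed by -1.12 ± 0.12 on the log2 scale (edgeR adjusted p = 1.54e-06). Id1 fell by 0.54 ± 0.18 with overlapping groups (adjusted p = 0.0467), and Id2 was not called. Hes1, a target of Notch signalling, was at 4.61, 4.06 and 3.18 against 8.23, 8.36 and 11.2 CPM (log2 -1.23 ± 0.25). Atoh8 fell by 2.09 ± 0.23 and Smad9, a mediator of BMP signalling, fell by 0.83 ± 0.10, while the ligand gene Bmp6 rose from 0.326, 0.4 and 0.439 CPM with T/P to 1.88, 2.21 and 1.67 with PF-06873600. The acute-phase gene Orm1 and the fibrinogen gamma chain gene Fgg differed by -1.28 ± 0.20 and -1.99 ± 0.22, and Fga, under 1 CPM throughout, was not called.

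Of 12 alpha and beta tubulin genes 6 rose and 0 fell, among them Tubb6, at 101, 108 and 99.5 against 62.7, 71.2 and 65.6 CPM (log2 0.63 ± 0.081), though tubulin genes can share reads. Of 21 Cenp genes 10 rose and 0 fell. Of 80 ribosomal protein genes 0 were called. Of 11 mitochondrial transfer RNA genes 3 fell and 0 of 14 other mitochondrial genes were called. Of 235 solute carrier genes 9 rose and 25 fell. Over all genes tested 7.59% were called higher and 4.75% lower, and the family shares were not tested against these. Gpx3, a secreted peroxidase gene, was at 1032, 1105 and 963 CPM with PF-06873600 and 1998, 2194 and 2087 with T/P (log2 -1.02 ± 0.10), Ogn, a matrix proteoglycan gene, fell by 1.14 ± 0.12, and Lamb2, a laminin chain gene, fell by 0.81 ± 0.077. At low levels, Clca1 was at 3.68, 4.3 and 3.1 against 0.244, 0.76 and 0.146 CPM and Cd74, the class II invariant chain gene, at 3.6, 3.98 and 2.84 against 0.896, 0.6 and 0.842. The 14 genes called higher with 0 counts in the 3 T/P libraries are given no fold.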
